A study of Mus musculus with 26 samples.

Results

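The pancreatic islets compared here came from C57BL/6J mice of 2 ages, with no other treatment given in the labels. The younger group was taken at postnatal day 5 and is titled small, beside libraries of the same age titled large; the labels do not say how small and large were defined, and the text takes them as islet size. The older group held islets from adults aged 2.5 months. Islets were hand-picked, so each library is a pool of islets, and the labels do not state the sex of the mice. The library names of adult replicates 1 and 2 begin with M and those of 3 and 4 with F, letters that the labels do not explain. Of the 26 libraries of the series, 11 were used: the 5 libraries titled as small neonatal samples in batches 2 and 3, and all 6 adult libraries. Batch 2 held 3 small islet and 4 adult libraries, and batch 3 held 2 of each. The 4 small islet libraries of batch 1 had no adult partner in their batch and did not enter the comparison. Nothing in the labels says that libraries came from separate animals, so a p-value here measures the spread between libraries, which may be technical. RNA was total RNA from which ribosomal RNA had been removed, and the series as a whole concerns the damage response of islet cells during development.

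Islets are clusters of endocrine cells. Their β cells make insulin, α cells glucagon, δ cells somatostatin, PP cells pancreatic polypeptide and ε cells ghrelin, and all of them sit in a dense network of capillaries. In the newborn mouse, β cells still divide and respond poorly to glucose; around weaning they leave the cell cycle, gain MafA and urocortin 3 and silence genes that would let the cell release insulin at the wrong time. The comparison asks which transcripts separate small islets of the first week from mature islets.

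The authors deposited 1 FPKM value for each of 13641 genes and each library, that is, fragments per kilobase of gene, scaled to the total of the library. Fragment totals recovered from these values, in mega-fragments (M), ran from 17.3 M to 29.5 M over the 11 libraries and were lowest in the adult libraries of batch 3, at 18.5 M and 17.3 M. The endocrine label held in every library. Ins1 lay at 42800 to 55510 FPKM in the small islets and 38220 to 56760 FPKM in the adult ones, and Gcg at 14750 to 18130 and 15690 to 31460 FPKM. The 20 acinar (digestive enzyme) genes in the file summed to 74.0 to 994 FPKM in the small islets. In the adults the same sum was 6041 FPKM in replicate 1 and 11.8 to 331 FPKM in the other 5 libraries, and none of the 18 acinar genes kept was called. Prss1, an acinar trypsinogen, was listed at 0 in all 6 adult libraries while Try4, another trypsinogen, was at 304 FPKM in adult replicate 1. Transcripts of the sex chromosomes were mixed in all 5 small islet pools, with Xist, the RNA that silences an X chromosome, at 21.1 to 58.8 FPKM and Y-linked Ddx3y at 4.86 to 11.0 FPKM. Adult replicates 1 and 2 had Ddx3y at 29.0 and 27.2 FPKM and Xist near 0. Adult replicate 3 had Xist at 35.5 and Ddx3y at 1.84 FPKM, and replicates 4, 5 and 6 had Xist at 84.6, 120.2 and 122 FPKM and Ddx3y at 0. What part sex had in the results was not tested; without adult replicates 1 and 2, 6920 genes were called.

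Small neonatal islets differed from adult islets in most of the transcriptome. A gene was kept where 5 or more of the 11 libraries reached 1 FPKM (12621 genes), and log2(FPKM + 1) was fitted with limma with batch as a term. A gene is called at a Benjamini-Hochberg adjusted p below 0.05, and a log2 change is small neonatal minus adult. Called genes numbered 7494 (59.4%), of which 5124 (40.6% of genes kept) were higher and 2370 (18.8%) lower in small islets. A log2 change of at least 1 in size was reached by 1182 higher genes and 233 lower ones. No small islet library overlapped any adult library for 4893 genes (38.8%), 3615 of them higher and 1278 lower. Each batch fitted alone called 3293 genes higher in both (26.1%) and 1230 lower in both (9.75%), while 791 were called in both batches with opposite signs.

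The scale of the FPKM bears on the split between higher and lower. The 100 highest genes took 53.4% ± 1.79 of all FPKM in adult islets (SD, n = 6) and 46.6% ± 2.01 in small islets (SD, n = 5), a difference of -6.94 percentage points within batches (exact permutation test over 210 arrangements within batches, two-sided, p = 0.00476, 0.0143 after adjustment over 3 shares). The genes kept had a median log2 change of 0.13 on the deposited values, -0.03 after rescaling by the median of ratios and -0.05 after quantile normalization. With the median of ratios 3620 genes were called higher and 3930 lower, and with quantile normalization 3579 and 4079, so the majority turned to lower under both. The medians of gene groups are to be read against 0.13, and their counts against the 40.6% of all genes kept that were higher and the 18.8% that were lower. The plot of list medians gives every group with at least 5 genes kept.

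**Figure D1:**
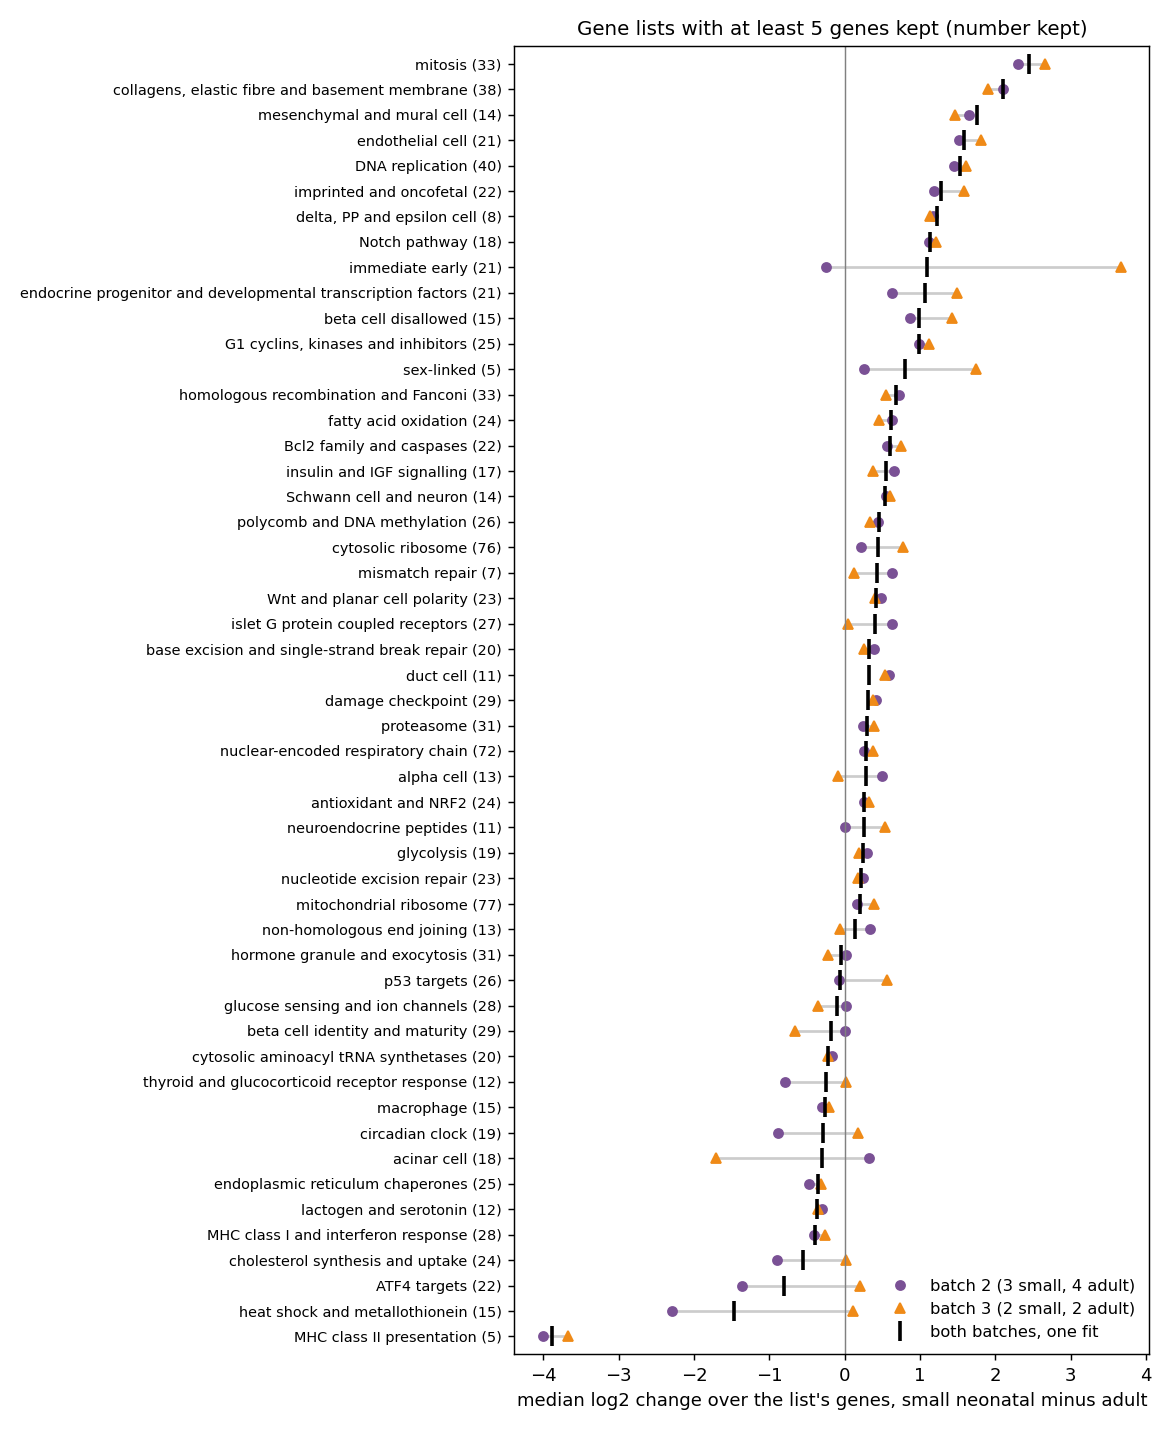
Median log2 change (small neonatal minus adult, x axis) for each gene list with at least 5 genes kept, with the number of genes kept in brackets; circles are batch 2, triangles batch 3 and black bars the fit over both. Mitosis has the highest median at 2.45 and MHC class II the lowest at -3.89, while the immediate early, heat shock and ATF4 lists lie far apart in the 2 batches.

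The batches did not give the same answer for many genes. The change differed between batches 2 and 3 for 5318 genes (42.1%; limma interaction of group and batch), 2381 of them higher and 2937 lower in batch 3, and 2746 of the 5318 had opposite signs in the batches. Between batch 3 and batch 2, 6606 genes (52.3%) were called within adult islets and 2234 (17.7%) within small islets. Over the 5318 genes the median absolute difference between batches was 0.45 on the log2 scale in adults and 0.20 in small islets, and it was the larger one in adults for 4058 genes. Within-batch values are given with a named gene where the batch difference was called and was at least 1 on the log2 scale, and for some genes with smaller differences; any other change is that of the fit over both batches. In the plot of batch 3 against batch 2, mitosis and MHC class II genes lie along the diagonal, and immediate early and heat shock genes lie well off it.

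**Figure D2:**
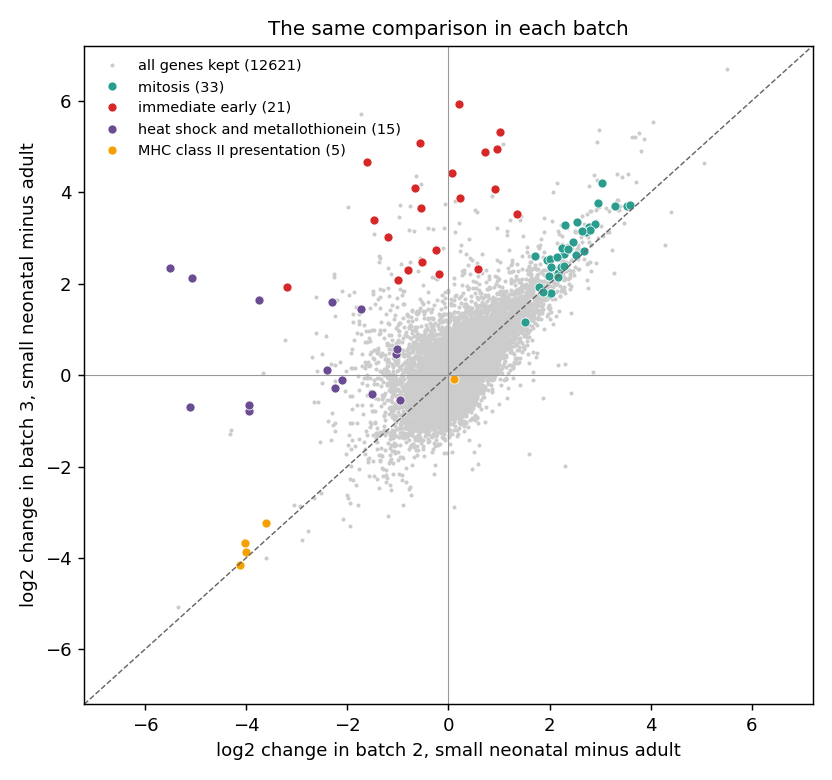
Log2 change of each gene kept (small neonatal minus adult) in batch 2 on the x axis and batch 3 on the y axis; each point is 1 gene, the dashed line marks equal changes, and 4 gene lists are coloured with their number of genes kept. All 33 mitosis genes are above 0 in both batches, whereas the 21 immediate early genes are above 0 in batch 3 and lie on both sides of 0 in batch 2.

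The 10 largest rises with groups that did not overlap were H19, Eln, Ghrl, Dlk1, Aplnr and 5 replication-dependent histone genes. H19, an imprinted noncoding RNA of fetal tissues, was at 54.0, 38.0, 43.0, 177 and 60.4 FPKM in the small islet libraries (here and below the order is replicates 7, 8 and 9 of batch 2, then 5 and 6 of batch 3). In adult islets H19 was listed at 0 in 4 libraries and at 0.0165 and 0.0253 FPKM in the other 2, and its log2 change was 5.94 ± 0.28 (SE, adjusted p = 2.49e-08). Small replicate 5 stood above the other small libraries for H19, and every small library lay far above every adult one. Eln, which encodes elastin, was at 210.5, 54.3, 33.6, 250.4 and 43.5 FPKM in small islets and at 1.00, 1.39 and 4.05 FPKM in adult ones (lowest, median and highest here and below), a change of 4.91 ± 0.53 (SE, adjusted p = 3.55e-05). Small replicates 7 and 5 held several times the Eln of the other 3 small libraries. Dlk1, an imprinted transmembrane protein of the Delta-like family, was at 21.7, 16.5, 15.9, 45.1 and 56.2 FPKM against 0.24, 0.362 and 0.555 FPKM, a change of 4.33 ± 0.24 (SE, adjusted p = 6.49e-08), with 3.77 within batch 2 against 5.29 within batch 3. Aplnr, the receptor for apelin found on endothelium, was at 37.1, 29.1, 38.1, 47.6 and 25.2 FPKM against 0.468, 0.857 and 2.13 FPKM, a change of 4.10 ± 0.19 (SE, adjusted p = 1.47e-08). The histone genes Hist1h3c, Hist1h2af, Hist1h3b, Hist1h2ab and Hist1h2bm changed by 4.59, 4.25, 4.22, 4.22 and 3.90, and the first 4 rose less in batch 2 (4.04, 3.70, 3.82 and 3.64) than in batch 3 (5.53, 5.21, 4.90 and 5.21). These are near-identical copies among which reads are assigned with some uncertainty. For Hist1h2ab the small libraries held 50.4, 39.7, 50.2, 90.6 and 72.8 FPKM and the adults 0.687, 2.27 and 4.19 FPKM.

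**Figure D3:**
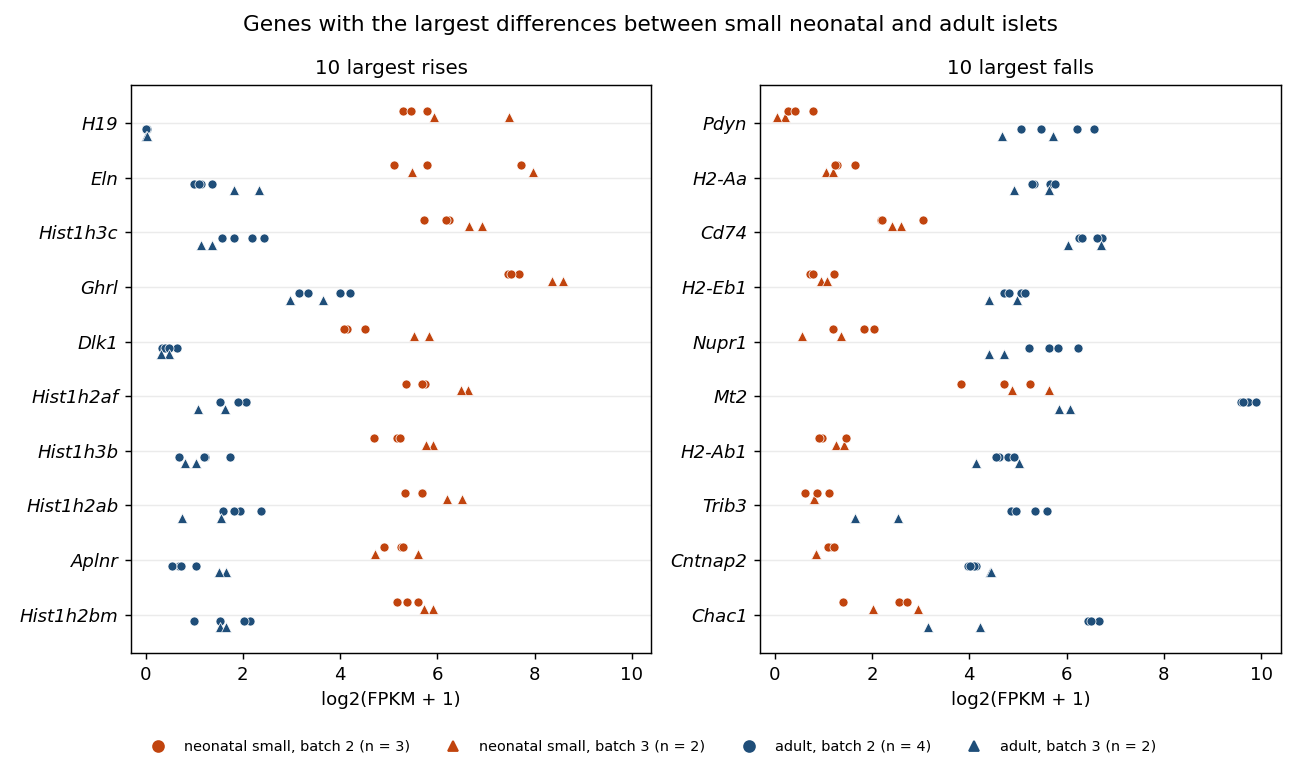
Level of the 10 genes with the largest rises (left) and the 10 with the largest falls (right) in small neonatal against adult islets, as log2(FPKM + 1) on the x axis; each point is 1 library, red for small neonatal and blue for adult, circles for batch 2 and triangles for batch 3. The groups do not overlap for any of the 20 genes, by the rule that chose them, and Mt2, Trib3 and Chac1 show adult libraries of batch 3 well below those of batch 2.

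The 10 largest falls included 4 genes of antigen presentation and 4 stress-response genes. Pdyn, which encodes the opioid precursor prodynorphin, had the largest, from 24.7, 47.5 and 94.3 FPKM in adults to 0.204, 0.334, 0.736, 0.157 and 0.033 FPKM in small islets, a change of -5.24 ± 0.28 (SE, adjusted p = 6.19e-08) with -5.34 within batch 2 against -5.07 within batch 3. Cntnap2, a neurexin-like adhesion protein, fell from 14.7, 16.4 and 20.9 FPKM to 1.21, 1.13, 1.33, 0.797 and 0.789 FPKM, a change of -3.16 ± 0.12 (SE, adjusted p = 4.30e-09). The antigen presentation genes H2-Aa, Cd74, H2-Eb1 and H2-Ab1 changed by -4.13, -3.95, -3.89 and -3.47. Among the stress-response genes, Nupr1 changed by -3.88 ± 0.22 (SE, adjusted p = 7.69e-08), with -4.04 within batch 2 against -3.60 within batch 3, and Trib3 by -3.20 ± 0.51 (SE, adjusted p = 4.41e-04), with -4.32 within batch 2 against -1.28 within batch 3. Mt2 and Chac1 changed by -3.49 and -3.15 overall but were not called in batch 3 alone, where they changed by -0.70 and -1.21 against -5.12 and -4.29 in batch 2.

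Among hormones, the 2 mouse insulin genes parted. Ins2 was at 52260, 57390, 72110, 65010 and 65560 FPKM in small islets and 76970, 97590 and 107000 FPKM in adult ones, with no overlap and a change of -0.58 ± 0.14 (SE, adjusted p = 0.00292), the same -0.58 in each batch. Ins1, the rodent-specific copy, was at 42800, 46760, 55510, 50230 and 48860 FPKM against 38220, 49230 and 56760 FPKM and was not called (0.03 ± 0.14 SE, adjusted p = 0.875). Together Ins1 and Ins2 took 25.4% ± 2.17 of all FPKM in small islets (SD, n = 5) and 31.1% ± 3.35 in adult islets (SD, n = 6). The difference was -5.80 percentage points within batches (exact permutation test, two-sided, p = 0.0286, adjusted p = 0.0429). By the unadjusted exact p it lost the threshold without small replicate 7 (-5.27, exact p = 0.0556) and without adult replicate 1 (-5.09, exact p = 0.05) or 2 (-5.36, exact p = 0.05). With any other library left out, the exact p was 0.0222 to 0.0476. None of these p-values was adjusted over the 3 shares, unlike the 0.0429. The difference was -4.64 in batch 2 (exact p = 0.171) and -7.77 in batch 3, where 2 against 2 libraries allow no exact p below 0.333. Iapp, which encodes the amylin that is released with insulin, fell from 12120, 14910 and 16110 FPKM to 10130, 10300, 9795, 7566 and 8389 FPKM (-0.63 ± 0.13 SE, adjusted p = 0.00119). Quantile normalization, which sets the highest genes of each library to the same values, removed the calls of Ins2 and Iapp.

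Gcg, the glucagon gene, was at 14750, 17110, 16790, 18130 and 14990 FPKM in small islets and 15690, 23560 and 31460 FPKM in adults, with overlap between the groups. Its change of -0.50 ± 0.17 (SE, adjusted p = 0.0209) was not called without small replicate 6 (-0.46) or 7 (-0.46), or in batch 2 alone. Quantile normalization gave Gcg the same value in every library, so that setting could not call it. Glucagon made up 12.2% ± 1.23 of the FPKM of Ins1, Ins2, Gcg, Sst and Ppy in small islets (SD, n = 5) and 14.0% ± 4.25 in adults (SD, n = 6), with an exact permutation p of 0.376. Sst, the somatostatin gene, was at 2315 to 4366 FPKM in small islets and 2293 to 3731 FPKM in adults, a change of 0.00 ± 0.16 (SE, adjusted p = 0.998). Ppy, the pancreatic polypeptide gene, changed by 0.02 ± 0.22 (SE, adjusted p = 0.944), and small replicate 6 held 7214 FPKM against 3243 to 3531 in the other small libraries. Ghrl, the ghrelin gene of ε cells, rose from 6.84, 10.3 and 17.4 FPKM to 174, 205, 182, 328 and 385 FPKM, a change of 4.35 ± 0.28 (SE, adjusted p = 3.10e-07), with 3.88 within batch 2 against 5.17 within batch 3. Pyy, the peptide YY gene, rose from 1703, 2203 and 2509 FPKM to 5233, 5895, 5846, 6775 and 12020 FPKM, a change of 1.64 ± 0.17 (SE, adjusted p = 8.44e-06). In bulk islets, fewer cells of a type and less RNA per cell cannot be told apart.

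β cell identity genes moved in both directions. Of 29 kept, 6 were higher and 12 lower, with a median of -0.18 (close to 0 in batch 2 and -0.66 in batch 3), and 5 were called with opposite signs in the 2 batches. Rescaled by the median of ratios, 4 were higher and 15 lower. Cox6a2, a heart and muscle type subunit of cytochrome c oxidase that islets also carry, was at 3.96, 7.45, 10.7, 4.53 and 2.30 FPKM against 42.3, 48.3 and 61.0 FPKM and changed by -3.01 ± 0.23 (SE, adjusted p = 7.85e-07). Syt4, a synaptotagmin that adjusts the calcium response of secretion, was at 11.0, 13.0, 12.6, 6.06 and 8.07 FPKM against 47.7, 79.3 and 87.5 FPKM and changed by -2.67 ± 0.08 (SE, adjusted p = 1.49e-09), with -2.66 within batch 2 against -2.69 within batch 3. Ucn3, the urocortin 3 that mouse β cells gain late in maturation, was at 104, 136, 141, 103 and 104 FPKM against 257, 269 and 359 FPKM, a change of -1.30 ± 0.12 (SE, adjusted p = 3.06e-06), with -1.06 within batch 2 against -1.70 within batch 3. All 6 higher genes encode transcription factors (Pdx1, Foxa2, Isl1, Nkx2-2, Nkx6-1 and Pax6). Pdx1, the master regulator of pancreas and β cell, rose by 0.70 ± 0.11 (SE, adjusted p = 1.42e-04), with 121 to 202 FPKM in small and 73.5 to 119 FPKM in adult islets. Foxa2, a pioneer factor of foregut endoderm, rose by 0.72 ± 0.09 (SE, adjusted p = 3.22e-05), and Isl1, a homeobox factor of all islet cells, by 0.63 ± 0.15 (SE, adjusted p = 0.00412), the latter by 0.13 and uncalled in batch 3 alone. Mafa, the factor of mature β cells, was at 138, 112, 151, 109.7 and 208 FPKM in small islets and 111, 136 and 148 FPKM in adults and was not called (0.11 ± 0.16 SE, adjusted p = 0.564).

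Genes of the α cell list, Gcg among them, also divided, with 6 of 13 kept higher and 3 lower (40.6% and 18.8% of all genes). Slc38a5, an amino acid transporter, rose from 3.62, 7.19 and 7.63 FPKM to 51.9, 70.8, 97.4, 81.9 and 85.0 FPKM, a change of 3.42 ± 0.18 (SE, adjusted p = 4.02e-08) with 3.48 within batch 2 against 3.33 within batch 3. Pou3f4, a transcription factor of α cells, rose by 1.78 ± 0.08 (SE, adjusted p = 1.03e-08). Gc, the vitamin D binding protein made by α cells, fell from between 42.8 and 55.5 FPKM to 10.7, 17.1, 22.3, 8.30 and 14.7 FPKM, a change of -1.80 ± 0.20 (SE, adjusted p = 1.39e-05). Ttr, transthyretin, fell by 0.75 ± 0.16 (SE, adjusted p = 0.00158). Among δ, PP and ε cell genes 6 of 8 were higher and none lower (median 1.22); beside Ghrl and Pyy, Rbp4, the retinol binding protein, rose by 1.64 ± 0.19 (SE, adjusted p = 1.90e-05). Of 11 neuroendocrine peptide and granule genes kept, 3 were higher and 2 lower. Nnat, an imprinted small membrane protein, rose from 18.5, 27.5 and 31.9 FPKM to 239, 169, 259.5, 254 and 374 FPKM (3.21 ± 0.18 SE, adjusted p = 7.01e-08). Gast, the gastrin gene, rose from 0.118, 0.49 and 0.78 FPKM to 7.87, 5.19, 4.40, 12.0 and 10.6 FPKM (2.54 ± 0.23 SE, adjusted p = 2.60e-06, with 2.05 within batch 2 against 3.38 within batch 3). Tac1, the substance P precursor, had the weakest of these calls, 0.63 ± 0.22 (SE, adjusted p = 0.0258), which was lost without small replicate 5 (0.56) or adult replicate 1 (0.58). Scg3, secretogranin 3, fell by 0.46 ± 0.09 (SE, adjusted p = 7.46e-04) and was not called after quantile normalization.

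Factors of endocrine development were mostly higher in small islets, 17 of 21 kept and none lower, with a median of 1.06; after the median-of-ratios rescaling 14 were higher and 2 lower. Id4, an inhibitor of bHLH factors, rose by 1.93 ± 0.17 (SE, adjusted p = 1.93e-06). Fev, a factor of endocrine progenitors and serotonin neurons, rose from 2.20, 3.02 and 5.86 FPKM to 12.5, 11.2, 12.7, 17.8 and 30.3 FPKM (1.92 ± 0.14 SE, adjusted p = 3.51e-07). Mnx1, a motor neuron and pancreas homeobox gene, rose from 4.27, 5.61 and 11.6 FPKM to 24.1, 22.3, 22.4, 23.3 and 44.1 FPKM (1.79 ± 0.15 SE, adjusted p = 1.28e-06). So-called disallowed genes, which mature β cells keep silent although most tissues use them, were higher for 12 of 15 and lower for none (median 0.99). Igfbp4, an IGF binding protein, rose from 4.92, 7.36 and 13.2 FPKM to 42.7, 32.1, 38.8, 92.1 and 36.5 FPKM (2.26 ± 0.20 SE, adjusted p = 2.46e-06). Mgst1, a microsomal glutathione transferase, rose by 2.05 ± 0.22 (SE) and the chemokine gene Cxcl12 by 2.03 ± 0.16 (SE). Genes on this list are active in vessel and connective tissue cells too, whose lists had summed levels of 599 to 911 FPKM (endothelial) and 327 to 599 FPKM (mesenchymal and mural) in small islets against 226 to 294 and 98.1 to 159 FPKM in adults. Their part in the result was not tested.

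Receptors and growth signals changed in part. Of 12 genes for lactogen signalling and serotonin, none was higher and 7 were lower (median -0.37). Prlr, the prolactin receptor, was at 16.7, 20.0, 20.3, 10.0 and 8.71 FPKM in small islets and 42.3, 46.5 and 94.8 FPKM in adults, a change of -1.89 ± 0.29 (SE, adjusted p = 2.67e-04) with -1.19 within batch 2 against -3.09 within batch 3. Ddc, which makes serotonin from its precursor, fell by 1.01 ± 0.16 (SE, adjusted p = 2.21e-04), with -0.68 within batch 2 against -1.57 within batch 3. Bcl6, a transcriptional repressor, fell by 1.84 ± 0.31 (SE, adjusted p = 4.40e-04), with -2.57 within batch 2 against -0.59 within batch 3. Islet G protein coupled receptors were higher for 15 of 27 and lower for 5, the latter a share like the 18.8% of all genes. Ffar4, a receptor for long-chain fatty acids, rose by 1.67 ± 0.20 (SE, adjusted p = 3.00e-05), with 1.23 within batch 2 against 2.42 within batch 3. Gprc5b, an orphan receptor, rose by 1.53 ± 0.08 (SE) and Sstr1, a somatostatin receptor, by 1.28 ± 0.08 (SE). Sstr3, another somatostatin receptor, fell from 47.1, 52.5 and 72.7 FPKM to 33.0, 32.3, 36.8, 33.9 and 39.9 FPKM (-0.67 ± 0.08 SE, adjusted p = 2.00e-05). Gpr158 changed by -1.38 ± 0.20 (SE), with -0.91 within batch 2 against -2.18 within batch 3. Insulin and IGF signalling genes were higher for 13 of 17 and lower for 1. Igf2, the imprinted fetal growth factor, was at 47.4, 33.2, 38.5, 118 and 46.6 FPKM against 2.10, 2.47 and 2.97 FPKM, a change of 3.87 ± 0.23 (SE, adjusted p = 1.33e-07), with small replicate 5 above the other 4. Grb10, an imprinted adaptor that restrains insulin receptor signalling, rose from 13.4, 17.2 and 20.7 FPKM to 68.8, 64.1, 65.0, 86.0 and 76.6 FPKM (2.00 ± 0.10 SE, adjusted p = 2.00e-08). Akt2, a kinase of the insulin pathway, was the lower gene (-0.29 ± 0.07, SE), uncalled in batch 3 alone at -0.12.

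Genes of hormone secretion were called in both directions. Granule and exocytosis genes were higher for 9 and lower for 9 of 31 (rescaled by the median of ratios, 8 and 15). Stx1a, a syntaxin of vesicle fusion, rose by 1.16 ± 0.09 (SE, adjusted p = 1.00e-06). Exph5 (granuphilin relative Slac2-b) fell by 0.66 ± 0.10 (SE, adjusted p = 1.20e-04) and Scg5, the chaperone of prohormone convertase 2, fell by 0.63 ± 0.07 (SE, adjusted p = 1.22e-05). Glucose sensing and channel genes were higher for 6 and lower for 7 of 28, and for 5 and 13 after rescaling by the median of ratios, which turned the split to mostly lower. Kcnq1, a potassium channel, rose from 0.51, 0.717 and 1.98 FPKM to 5.57, 4.07, 4.08, 7.00 and 7.34 FPKM (1.74 ± 0.11 SE, adjusted p = 1.08e-07), and Kcnk16, the islet channel TALK-1, by 1.07 ± 0.09 (SE). Trpm5, a cation channel gated by calcium, fell from 25.6, 32.5 and 45.3 FPKM to 11.2, 11.5, 13.9, 9.82 and 8.45 FPKM (-1.59 ± 0.16 SE, adjusted p = 5.31e-06, with -1.24 within batch 2 against -2.19 within batch 3). Cacnb2, a calcium channel subunit, changed by -0.71 ± 0.08 (SE).

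Genes of fatty acid oxidation were higher in small islets. Of 24 fatty acid oxidation genes 19 were higher and none lower, 17 with groups that did not overlap (40.6% of all genes were higher and 38.8% did not overlap, in either direction), and the median was 0.61. Pdk4, which blocks pyruvate entry into the citric acid cycle, was at 40.7, 34.4, 24.2, 41.9 and 48.5 FPKM in small islets and 2.94, 5.19 and 13.6 FPKM in adults, a change of 2.45 ± 0.22 (SE, adjusted p = 3.23e-06). Acot1, an acyl-CoA thioesterase, rose by 1.25 ± 0.11 (SE). Glycolysis genes divided, 10 higher and 6 lower of 19. Ldha, lactate dehydrogenase A and a disallowed gene of β cells, rose from 5.64, 8.09 and 10.5 FPKM to 18.1, 15.3, 18.6, 24.1 and 14.8 FPKM (1.11 ± 0.15 SE, adjusted p = 5.94e-05). Eno2, neuron-specific enolase, fell from 16.3, 18.7 and 22.2 FPKM to 7.04, 4.18, 3.81, 5.24 and 4.83 FPKM (-1.74 ± 0.13 SE, adjusted p = 3.68e-07).

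Genes of cell division had the highest median of the lists with at least 5 genes kept. All 33 mitosis genes were called higher in small islets, in each batch alone as well, and none overlapped between the groups (background 40.6% higher and 38.8% without overlap). The list's median log2 change was 2.45 (2.29 within batch 2 against 2.65 within batch 3), and its summed level was 333 to 520 FPKM in the small islet libraries and 28.9 to 46.3 FPKM in the adult ones. Top2a, the topoisomerase that untangles chromosomes, was at 40.1, 34.1, 36.5, 45.9 and 42.3 FPKM against 1.16, 2.27 and 3.22 FPKM, a change of 3.64 ± 0.14 (SE, adjusted p = 5.18e-09). Mki67, the proliferation antigen Ki-67, was at 36.5, 30.8, 36.6, 42.6 and 37.0 FPKM against 1.40, 2.04 and 3.01 FPKM, a change of 3.59 ± 0.12 (SE, adjusted p = 2.79e-09). Ube2c, a ubiquitin-conjugating enzyme of mitotic exit, rose by 3.46 ± 0.18 (SE, adjusted p = 3.42e-08), with 3.03 within batch 2 against 4.19 within batch 3. DNA replication genes were higher for 39 of 40, with a median of 1.53. Mcm3, a subunit of the replicative helicase, was at 15.5, 17.5, 17.0, 21.9 and 17.9 FPKM against 1.53, 2.10 and 2.44 FPKM, a change of 2.62 ± 0.10 (SE, adjusted p = 4.55e-09). Uhrf1, which keeps DNA methylation through replication, rose by 2.98 ± 0.13 (SE, adjusted p = 9.86e-09) and Tk1, thymidine kinase 1, by 2.56 ± 0.10 (SE, adjusted p = 4.81e-09).

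The promoters of 2 of these genes are shown because mitosis and replication genes moved together and classical motifs of each group are known. Each is from the called gene with the largest change in its list whose promoter held the motif sought. A match was thus a condition of being shown, and Mcm3 is shown although Uhrf1 changed more. The sequences are RefSeq windows of GRCm38.p6 from 250 bases before to 50 bases after the start, 300 bases each, read on the minus strand: Top2a at chr11:99024140-99024439 and Mcm3 at chr1:20820263-20820562. In Top2a, capitals mark TTTGAA, the cell cycle homology region, and CCAAT, the NF-Y box, on either strand; in Mcm3 they mark the E2F motifs TTTGGCGC and TTTCCCGC on either strand.
Top2a: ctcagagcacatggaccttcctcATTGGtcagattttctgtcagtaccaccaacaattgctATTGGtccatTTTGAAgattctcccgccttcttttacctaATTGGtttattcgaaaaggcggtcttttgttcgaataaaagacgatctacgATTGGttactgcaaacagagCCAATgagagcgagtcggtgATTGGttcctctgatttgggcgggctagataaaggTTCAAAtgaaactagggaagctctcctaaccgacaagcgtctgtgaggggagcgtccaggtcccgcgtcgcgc
Mcm3: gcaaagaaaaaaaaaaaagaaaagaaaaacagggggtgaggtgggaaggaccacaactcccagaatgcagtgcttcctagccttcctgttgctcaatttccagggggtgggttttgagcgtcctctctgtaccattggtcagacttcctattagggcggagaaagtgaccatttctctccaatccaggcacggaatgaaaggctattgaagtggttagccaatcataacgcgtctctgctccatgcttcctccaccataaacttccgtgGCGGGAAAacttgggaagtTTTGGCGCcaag
The Top2a window holds 2 cell cycle homology matches and 6 CCAAT matches, and the Mcm3 window 2 E2F matches. A promoter was found for 27 of the 33 mitosis genes, in a search that left out a single chromosome. Of these, 22 (81.5%) held TTTGAA, against 13.7% of the genes kept and 17.9% of all 32851 RefSeq promoters searched. Shares of all promoters count promoters, and the other shares count genes with a match in any of their promoters. CCAAT was in 24 of the 27 (88.9%), against 42.5% of genes kept and 37.4% of all promoters. Of 31 replication gene promoters, 6 (19.4%) held TTTGGCGC, against 1.18% and 0.514%, and 6 held TTTCCCGC, against 2.42% and 1.07%. These are matches of letters, not measured binding.

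Regulators of the G1 phase followed for the most part, 18 of 25 higher and 1 lower. Cdkn1c, the imprinted inhibitor p57, rose from 1.06, 1.35 and 1.55 FPKM to 9.87, 6.67, 6.96, 22.4 and 10.6 FPKM (2.26 ± 0.23 SE, adjusted p = 6.23e-06, with 1.84 within batch 2 against 2.97 within batch 3). Cdkn2c, the inhibitor p18, rose by 1.79 ± 0.10 (SE); inhibitors of cyclin-dependent kinases were among the higher genes. E2f8, a repressor of the E2F family, rose by 2.12 ± 0.14 (SE, adjusted p = 1.35e-07). Cdkn2b, the inhibitor p15, was the gene that fell, from 4.99, 11.6 and 12.0 FPKM to 2.09, 2.54, 2.58, 3.73 and 3.61 FPKM (-1.37 ± 0.22 SE, adjusted p = 2.28e-04), with -1.91 within batch 2 against -0.46 within batch 3.

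Among DNA repair genes, those of homologous recombination were mostly higher in small islets. Homologous recombination and Fanconi genes, which mend double-strand breaks and crosslinks in S and G2 phase, were higher for 27 of 33 and lower for 1 (median 0.68). After rescaling by the median of ratios the counts were 20 and 3, and with quantile normalization 17 and 5 with a median of 0.31. Brca1, a recombination and checkpoint protein, was at 3.53, 3.13, 2.98, 3.70 and 3.09 FPKM against 0.558, 0.906 and 0.981 FPKM, a change of 1.25 ± 0.09 (SE, adjusted p = 2.08e-07). Fanca and Ube2t of the Fanconi pathway rose by 1.57 ± 0.07 and 1.76 ± 0.10 (SE), and Rad52 fell by 0.64 ± 0.09 (SE, adjusted p = 1.18e-04). Non-homologous end joining, which works in all phases, had 5 higher and 1 lower of 13, a higher share near the 40.6% of all genes; after rescaling by the median of ratios the counts were 3 and 3. Mad2l2, a shieldin and polymerase ζ subunit, rose by 0.58 ± 0.07 (SE, adjusted p = 3.55e-05) there. Base excision repair genes were higher for 11 and lower for 2 of 20 (7 and 3 with quantile normalization), with Neil3, a glycosylase of dividing cells, at 1.91 ± 0.10 (SE, adjusted p = 2.18e-08) and Ung, uracil glycosylase, at 1.15 ± 0.16 (SE). Nucleotide excision repair had 12 higher and 1 lower of 23, not far from the background of 40.6%, and 7 and 4 with quantile normalization. It was led by Rpa2, a single-strand binding protein shared with replication (1.45 ± 0.08 SE, adjusted p = 4.23e-08). Mismatch repair had 5 of 7 higher, 2 with quantile normalization, among them Msh6, which recognises mismatched bases (0.74 ± 0.09 SE, adjusted p = 1.67e-05).

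Damage signalling was less uniform. Checkpoint genes were higher for 17 of 29 and lower for 1 (rescaled by the median of ratios, 13 and 6). H2afx, the histone phosphorylated at breaks, rose from 8.49, 9.23 and 12.7 FPKM to 40.9, 32.9, 41.5, 68.3 and 67.6 FPKM (2.16 ± 0.18 SE, adjusted p = 1.44e-06, with 1.77 within batch 2 against 2.82 within batch 3). Clspn and Cdc25c, a checkpoint adaptor and a mitotic phosphatase, rose by 1.96 ± 0.08 and 1.78 ± 0.12 (SE). Atm, the kinase that senses double-strand breaks, was at 13.4, 12.6, 10.8, 8.06 and 10.6 FPKM in small islets; adults had 9.72, 8.55, 9.65 and 9.48 FPKM in the adult libraries of batch 2 and 18.2 and 21.9 FPKM in those of batch 3. Its change was 0.36 in batch 2 and -1.03 in batch 3, and -0.15 ± 0.22 (SE, adjusted p = 0.567) overall. Trp53, the p53 gene, was at 19.5, 19.3, 21.6, 27.8 and 24.6 FPKM in small islets and 16.1, 19.4, 17.6 and 18.1 FPKM in the adult libraries of batch 2 and 13.4 and 11.2 FPKM in those of batch 3, a change of 0.49 ± 0.14 (SE, adjusted p = 0.0109) that was not called in batch 2 alone (0.17) or after rescaling by the median of ratios (0.31). Targets of p53 were higher for 7 and lower for 6 of 26, and 7 were called with opposite signs in the 2 batches. Cdkn1a, the p53 target and kinase inhibitor p21, was at 23.8, 20.4, 11.8, 28.8 and 17.6 FPKM in small islets and at 47.4, 45.8, 45.4 and 51.7 FPKM in the adult libraries of batch 2 and 5.68 and 5.14 FPKM in those of batch 3. The small islets therefore lay below the adults of batch 2 (-1.36) and above those of batch 3 (1.88), and the overall change was -0.17 ± 0.54 (SE, adjusted p = 0.813). Plk2, a polo-like kinase, rose by 2.19 ± 0.36 (SE, adjusted p = 5.01e-04), with 1.45 within batch 2 against 3.47 within batch 3. Ccng1, cyclin G1, fell from 28.4, 31.1 and 32.5 FPKM to 17.1, 18.8, 16.6, 15.1 and 15.6 FPKM (-0.84 ± 0.07 SE, adjusted p = 7.15e-07), with -0.77 within batch 2 against -0.97 within batch 3. Trp53inp1, a p53-induced stress protein, fell by 1.59 ± 0.18 (SE), with -1.91 within batch 2 against -1.05 within batch 3. Of Bcl2 family and caspase genes 16 of 22 were higher and none lower, among them the BH3-only genes Bik (1.30 ± 0.08, SE) and Bmf (0.90 ± 0.10, SE).

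Fetal and developmental programmes were mostly higher in small islets. Imprinted and oncofetal genes were higher for 16 of 22 and lower for 2, with a median of 1.28. The lower genes were Mirg and Meg3, maternally expressed noncoding RNAs of the Dlk1 locus. Mirg was at 5.68, 6.00, 2.94, 5.16 and 3.50 FPKM against 9.58, 12.0 and 22.5 FPKM (-1.33 ± 0.22 SE, adjusted p = 3.60e-04). Meg3 was at 46.2, 54.6, 27.4, 31.9 and 33.0 FPKM against 43.6, 67.8 and 86.8 FPKM (-0.73 ± 0.22 SE, adjusted p = 0.0151) and was not called in batch 2 alone (-0.55). The 4 small islet libraries of batch 1, outside the comparison, lay the other way, at 170.1 to 253 FPKM of Meg3, above every adult library, and 19.1 to 27.6 FPKM of Mirg, overlapping the adults. Dlk1 itself rose, as given above. Chromatin regulators of the polycomb and DNA methylation groups were higher for 17 and lower for 4 of 26. Ezh2, the methyltransferase of polycomb complex PRC2 in dividing cells, rose from 2.43, 2.65 and 3.81 FPKM to 10.1, 10.1, 9.06, 11.5 and 7.36 FPKM (1.46 ± 0.12 SE, adjusted p = 7.33e-07). Its relative of resting cells, Ezh1, fell by 0.50 ± 0.10 (SE, adjusted p = 0.00146). Cbx2 rose by 1.39 ± 0.07 (SE) and Cbx7 fell by 0.76 ± 0.10 (SE), both chromodomain proteins of PRC1. Dnmt3a, a de novo DNA methyltransferase, rose from 21.6, 24.9 and 28.3 FPKM to 64.9, 71.9, 77.1, 52.0 and 70.8 FPKM (1.39 ± 0.11 SE, adjusted p = 5.98e-07). Notch pathway genes were higher for 16 of 18 and lower for none (median 1.14), including the receptor Notch3 (1.93 ± 0.09 SE, adjusted p = 1.83e-08), which mural cells use, the glycosyltransferase Mfng (2.38 ± 0.10, SE) and the target Nrarp (1.75 ± 0.08, SE). Wnt and planar polarity genes were higher for 12 and lower for 2 of 23, a higher share not far from the 40.6% of all genes. With quantile normalization the counts were 10 and 4, with a median of 0.18. Vangl1 and Vangl2, core polarity proteins, rose by 1.51 ± 0.08 and 1.36 ± 0.07 (SE), the co-receptor Lrp5 by 1.37 ± 0.08 (SE). Wnt4, a secreted ligand, fell from 44.8, 46.5 and 51.8 FPKM to 18.2, 22.1, 22.1, 24.4 and 29.9 FPKM (-1.03 ± 0.09 SE, adjusted p = 1.11e-06).

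Genes of vessels, connective tissue and blood were higher in small islets. Endothelial genes were higher for 20 of 21, with a summed level of 599 to 911 FPKM in the small islet libraries and 226 to 294 FPKM in the adult ones. Cdh5, the cadherin of endothelial junctions, was at 71.9, 56.7, 75.5, 102 and 62.7 FPKM against 9.23, 12.7 and 15.1 FPKM, a change of 2.48 ± 0.15 (SE, adjusted p = 1.14e-07). Cldn5, a tight junction protein of vessels, rose by 3.09 ± 0.20 (SE, adjusted p = 1.84e-07). Esm1, a secreted endothelial proteoglycan, was the lower gene (-0.39 ± 0.12, SE, adjusted p = 0.0131) and was not called in batch 2 alone. Collagen, elastic fibre and basement membrane genes were higher for 34 of 38 and lower for none, 18 of them in each batch alone, with a median of 2.10 and a summed level of 1322 to 2707 FPKM in the small islet libraries and 204 to 368 FPKM in the adult ones. Col4a1 and Col4a2, the chains of vascular basement membrane, changed by 3.13 ± 0.11 (SE, adjusted p = 4.17e-09) and 3.05 ± 0.12 (SE), with Col4a1 at 334, 314, 401, 419 and 303 FPKM against 32.1, 39.5 and 45.1 FPKM. All 14 mesenchymal and mural genes were higher, with a sum of 327 to 599 FPKM in the small islet libraries and 98.1 to 159 FPKM in the adult ones. The pericyte genes Kcnj8 and Mcam rose by 2.22 ± 0.14 and 2.06 ± 0.09 (SE). Acta2, smooth muscle actin, was called (2.03 ± 0.38 SE, adjusted p = 9.69e-04) although adult replicate 5, at 20.9 FPKM, lay within the small islets' 16.6 to 55.1 FPKM. The 3 erythroid genes kept were higher too. Hbb-bs, adult β globin, was at 243, 232, 260.4, 244 and 335 FPKM against 4.44, 19.7 and 68.0 FPKM (3.86 ± 0.51 SE, adjusted p = 1.29e-04, with 2.98 within batch 2 against 5.36 within batch 3). Alas2, the heme enzyme of red cell precursors, rose by 2.08 ± 0.10 (SE, adjusted p = 2.02e-08). Neuronal and Schwann cell genes were higher for 8 of 14 and lower for 1, among them Prph, an intermediate filament of peripheral neurons (2.21 ± 0.28 SE, adjusted p = 4.22e-05). Duct genes were higher for 6 of 11 and lower for 1, beside 40.6% and 18.8% of all genes. The counts were 4 and 1 with the median of ratios and 3 and 1 with quantile normalization. Sox9 led this list (1.64 ± 0.21 SE, adjusted p = 3.78e-05, with 1.28 within batch 2 against 2.27 within batch 3).

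Genes of antigen presentation by MHC class II had the lowest median of all lists with at least 5 genes kept, -3.89. Of 5 genes kept, 4 fell, with no overlap, and the list summed to 9.10 to 15.7 FPKM in the small islet libraries and 134 to 219 FPKM in the adult ones. H2-Aa, an α chain of the class II molecule, was at 1.44, 1.36, 2.14, 1.08 and 1.30 FPKM in small islets and 29.1, 44.1 and 53.1 FPKM in adults, a change of -4.13 ± 0.14 (SE, adjusted p = 3.07e-09) with -4.12 within batch 2 against -4.15 within batch 3. Cd74, the invariant chain, was at 3.52, 3.62, 7.30, 5.07 and 4.35 FPKM against 64.5, 88.0 and 106 FPKM, a change of -3.95 ± 0.18 (SE, adjusted p = 1.40e-08). H2-Eb1 and H2-Ab1, β chains, changed by -3.89 ± 0.14 and -3.47 ± 0.17 (SE). The macrophage list summed to 65.9 to 82.8 FPKM in the small islet libraries and 94.2 to 129.9 FPKM in the adult ones; 6 of 15 genes were lower and 1 higher. Ctss, a protease that trims Cd74, fell from 13.0, 15.1 and 23.4 FPKM to 6.69, 5.57, 7.87, 6.75 and 5.58 FPKM (-1.23 ± 0.14 SE, adjusted p = 1.63e-05). Cx3cr1 was the higher macrophage gene (0.64 ± 0.23, SE), with 1.18 within batch 2 against -0.29 within batch 3, and its call was lost without any 1 of small replicates 7, 8 and 9 (0.53 to 0.59) or adult replicates 1 to 4 (0.58 to 0.61). Both lymphocyte genes in the file were low, with a sum of 3.62 to 10.1 FPKM in the small islet libraries and 3.19 to 10.6 FPKM in the adult ones. MHC class I and interferon genes were lower for 18 of 28 and higher for 1 (median -0.40), 4 of them lower in each batch alone. Ifit1, an antiviral protein, fell from 1.60, 6.20 and 7.56 FPKM to 0.539, 0.502, 0.89, 0.908 and 0.492 FPKM (-1.81 ± 0.23 SE, adjusted p = 3.56e-05, with -2.25 within batch 2 against -1.05 within batch 3).

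Housekeeping machines showed small, mostly upward shifts that depended on scale. Cytosolic ribosomal protein genes were higher for 56 of 76 and lower for none (median 0.44; 0.22 within batch 2 against 0.77 within batch 3), and 61 of them differed in change between batches. Rescaled by the median of ratios, 27 were higher and 1 lower. Nuclear-encoded respiratory chain genes were higher for 50 and lower for 2 of 72 (median 0.28), and 23 and 6 after the same rescaling. Cox6a2 was among the lower genes, and Atp5o, an ATP synthase subunit, rose by 0.80 ± 0.08 (SE, adjusted p = 4.58e-06). Mitochondrial ribosome genes had 40 higher and 1 lower of 77 (40.6% and 18.8% of all genes), and 16 and 9 after rescaling. Proteasome genes had 21 higher and 1 lower of 31, and 12 and 3 after rescaling. Antioxidant genes were higher for 13 and lower for 4 of 24, and for 8 and 7 after rescaling. Cat, catalase, which β cells hold at low levels, rose from 2.10, 2.34 and 4.63 FPKM to 9.25, 8.18, 8.89, 13.6 and 7.18 FPKM (1.41 ± 0.15 SE, adjusted p = 6.80e-06). Gene length moved with these changes. In batch 3 the median log2 change fell from 0.36 in the shortest of 5 equal groups of genes (220 to 1760 bases) to -0.14 in the longest (5795 to 83436 bases), and in batch 2 from 0.20 to 0.13. The part of length in the results was not tested.

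**Figure D4:**
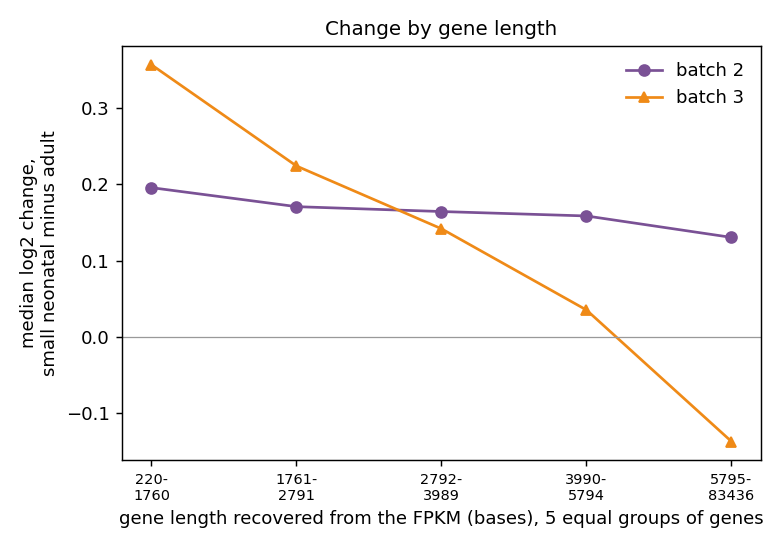
Median log2 change (small neonatal minus adult, y axis) in 5 groups of genes of about equal number ordered by the gene length recovered from the FPKM (x axis, bases), for batch 2 (circles) and batch 3 (triangles). The medians fall from 0.36 to -0.14 in batch 3 and from 0.20 to 0.13 in batch 2.

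Among genes of protein folding in the endoplasmic reticulum and of amino acid stress, more were called lower than higher in small islets. Folding genes were lower for 14 of 25 and higher for 1, with a median of -0.47 within batch 2 against -0.31 within batch 3. Ero1lb, the oxidase that forms disulfide bonds in proinsulin-making cells, was at 137, 177, 187, 99.6 and 100 FPKM against 424, 461 and 508 FPKM, a change of -1.74 ± 0.14 (SE, adjusted p = 8.76e-07) with -1.47 within batch 2 against -2.21 within batch 3. Xbp1, the transcription factor of the unfolded protein response, fell by 0.85 ± 0.10 (SE, adjusted p = 1.76e-05), and Ppib, a proline isomerase, rose by 1.07 ± 0.13 (SE, adjusted p = 1.94e-05). Targets of ATF4, the factor of the integrated stress response, were lower for 12 of 22 and higher for none, but the median was -1.36 within batch 2 against 0.21 within batch 3, and 7 were called with opposite signs. The list summed to 1618 to 1676 FPKM in the adults of batch 2, 485 and 598 FPKM in those of batch 3, and 507 to 767 FPKM in small islets. Nupr1, a stress-induced nuclear protein, was at 2.56, 3.10, 1.29, 1.56 and 0.471 FPKM in small islets and 74.2, 49.1, 36.5 and 55.6 FPKM in the adult libraries of batch 2 and 20.3 and 25.3 FPKM in those of batch 3. Trib3, a pseudokinase that restrains Akt, was at 1.17, 0.829, 0.537, 0.758 and 0.757 FPKM in small islets and 47.8, 39.8, 28.0 and 30.1 FPKM in the adult libraries of batch 2 and 2.14 and 4.82 FPKM in those of batch 3. Chac1, which degrades glutathione, was at 4.91, 5.59, 1.66, 6.67 and 3.07 FPKM in small islets and 101, 87.1, 86.2 and 90.2 FPKM in the adult libraries of batch 2 and 7.92 and 17.7 FPKM in those of batch 3. Adults of both batches lay above the small islets for these 3 genes, those of batch 3 by much less for Trib3 and Chac1. Aminoacyl tRNA synthetase genes were lower for 10 and higher for 4 of 20, with Cars at -1.36 ± 0.12 (SE, adjusted p = 2.02e-06) and Nars at -0.92 ± 0.07 (SE).

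The Nupr1 promoter is shown by the same rule, which required a match, and is that of the ATF4 target with the largest fall. It is from RefSeq (GRCm38.p6, minus strand, chr7:126625421-126625720). Capitals mark the composite element TGATGNAA, here on the opposite strand.
Nupr1: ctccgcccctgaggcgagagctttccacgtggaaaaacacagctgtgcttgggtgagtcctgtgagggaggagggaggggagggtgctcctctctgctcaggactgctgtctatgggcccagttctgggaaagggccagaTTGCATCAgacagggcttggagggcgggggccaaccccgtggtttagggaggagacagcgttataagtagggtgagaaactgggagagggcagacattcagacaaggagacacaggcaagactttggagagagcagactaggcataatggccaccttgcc
It holds 1 match, and 6 of 19 promoters of the list (31.6%) held the motif on either strand, against 2.6% of genes kept and 3.97% of all promoters searched. For cholesterol genes the sterol element TCACNCCAC was in 1 of 16 promoters (6.25%), against 1.34% and 1.24%.

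Cholesterol genes depended on batch as the ATF4 targets did. Of 24, 15 were lower and 2 higher, and the median was -0.90 within batch 2 against 0.02 within batch 3. The summed level was 1010 to 1212 FPKM in the adults of batch 2, 409 and 452 FPKM in those of batch 3 and 357 to 482 FPKM in small islets. Insig1, an anchor of the sterol sensor, changed by -1.85 ± 0.22 (SE, adjusted p = 2.66e-05), with -2.29 within batch 2 against -1.10 within batch 3. Insig1 was at 28.0, 38.4, 29.4, 31.6 and 18.1 FPKM in small islets and 167, 144, 169 and 155 FPKM in the adult libraries of batch 2 and 48.9 and 56.2 FPKM in those of batch 3.

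Acute stress and immediate early genes showed the widest gap between batches, and it lay in the adult libraries. All 15 heat shock and metallothionein genes differed in change between batches; 8 were called lower overall and none higher, and the median was -2.29 within batch 2 against 0.11 within batch 3. Their sum was 5616 to 6234 FPKM in the adults of batch 2, 1401 and 1432 FPKM in those of batch 3 and 1326 to 1766 FPKM in small islets. Hsph1, a heat shock chaperone of the Hsp110 family, was at 16.8, 17.8, 15.3, 13.5 and 17.1 FPKM in small islets and 218, 299.8, 301 and 266 FPKM in the adult libraries of batch 2 and 23.9 and 25.4 FPKM in those of batch 3, a change of -3.94 within batch 2 against -0.66 within batch 3. Mt2, a metallothionein that binds zinc and copper, was at 37.1, 25.2, 13.3, 49.0 and 28.2 FPKM in small islets and 851, 771, 794 and 955 FPKM in the adult libraries of batch 2 and 56.5 and 66.4 FPKM in those of batch 3. Hspa1a, the inducible Hsp70 gene and chosen after its values were seen, was at 3.78 to 19.3 FPKM in small islets, 174 to 303 FPKM in the adults of batch 2 and 1.80 and 4.60 FPKM in those of batch 3. Within batch 2 the small islets lay below the adults for this gene. Within batch 3 they lay above the adults, at 13.6 and 19.3 FPKM.

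Immediate early genes, which cells switch on within minutes of a stimulus, were called higher for 6 of 21 and lower for none, a higher share below the 40.6% of all genes. All 21 differed in change between batches (42.1% of all genes), and the median was -0.25 within batch 2 against 3.66 within batch 3. Fos was at 1230, 1118, 763, 1702 and 1297 FPKM in small islets and 329, 480.4, 735 and 524 FPKM in the adult libraries of batch 2 and 34.3 and 38.8 FPKM in those of batch 3, a change of 2.61 ± 0.71 (SE, adjusted p = 0.011) with 1.03 within batch 2 against 5.31 within batch 3. Egr1, a zinc finger factor, was at 835, 752, 409, 1184 and 626 FPKM in small islets and 209, 313, 435 and 397 FPKM in the adult libraries of batch 2 and 25.8 and 28.1 FPKM in those of batch 3, a change of 2.43 ± 0.69 (SE, adjusted p = 0.0132), with 0.96 within batch 2 against 4.95 within batch 3. For both, small islets were high in each batch, and the adults of batch 3 held about an order of magnitude less than those of batch 2. Ier2 changed by 2.26 ± 0.71 (SE, adjusted p = 0.021), with 0.72 within batch 2 against 4.89 within batch 3, a call that was lost without small replicate 6 (1.95) or adult replicate 5 (1.89) or 6 (1.89) and in batch 2 alone. Among the 6 genes with the lowest adjusted p for a batch difference, Krt8, a keratin of epithelia, was at 151, 148, 115, 171 and 167 FPKM in small islets and 539, 584, 502 and 540.2 FPKM in the adult libraries of batch 2 and 50.0 and 48.2 FPKM in those of batch 3. The others were Fhl2, Tuft1, Vps37b, Dnaja4 and Cldn4. For Krt8, Fhl2, Tuft1 and Cldn4 the small islets lay nearer to the adults of batch 3 or between the 2 sets, and the change was -1.97 within batch 2 against 1.76 within batch 3 for Krt8, -2.26 within batch 2 against 2.20 within batch 3 for Fhl2, -1.66 within batch 2 against 0.29 within batch 3 for Tuft1 and -1.80 within batch 2 against 0.92 within batch 3 for Cldn4. Vps37b, a subunit of the ESCRT-I sorting complex, changed by -0.89 within batch 2 against 1.56 within batch 3, and Dnaja4, an Hsp40 co-chaperone, by -2.67 within batch 2 against -0.59 within batch 3. The labels do not say what differed between the adult libraries of batches 2 and 3. Among these libraries fragment totals and sex-linked transcripts differed, as given above, and their part was not tested. Differences that follow batch, depth among them, cannot be told apart from batch.

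**Figure D5:**
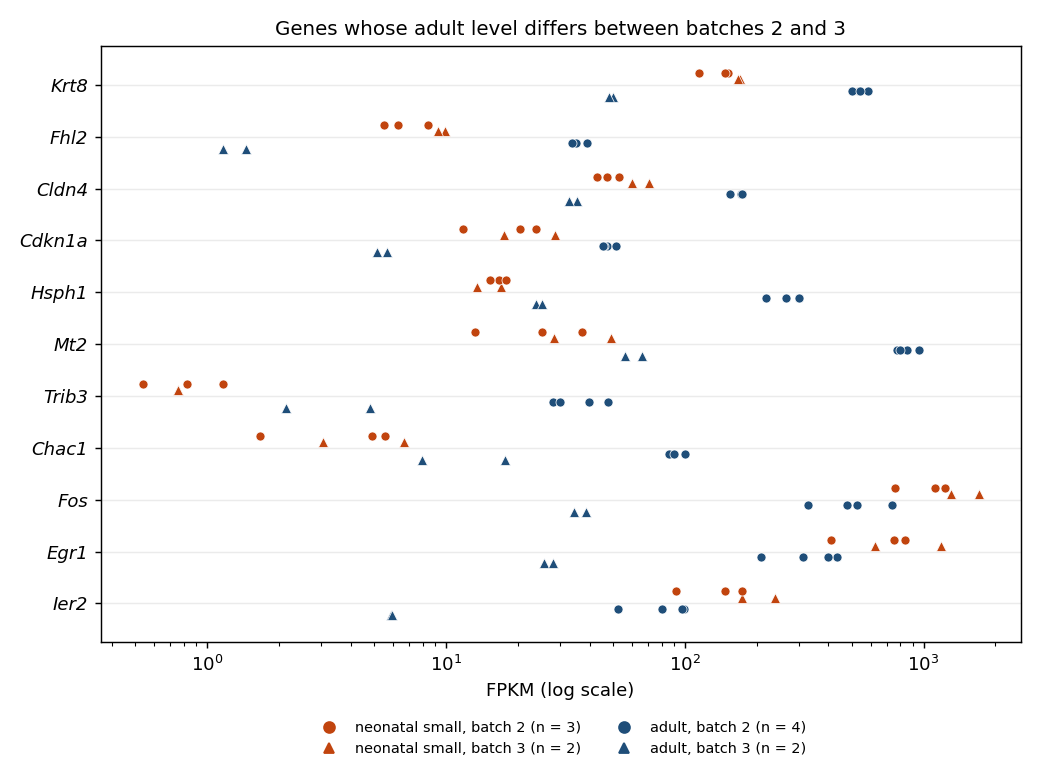
FPKM on a log scale (x axis) of 11 genes named in the text, 1 point per library, red for small neonatal and blue for adult, circles for batch 2 and triangles for batch 3. The genes were picked for adult levels that differ between the batches, and Atm and Prlr, which lie the other way, are not shown. By this choice, adult libraries of batch 2 lie above those of batch 3 for every gene shown. Mt2 is at 771 to 955 against 56.5 and 66.4 FPKM, and Chac1 at 86.2 to 101 against 7.92 and 17.7 FPKM.

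Circadian genes were lower for 7 of 19 and higher for 1, with a median of -0.89 within batch 2 against 0.17 within batch 3. Rora, a nuclear receptor of the clock, fell from 12.2, 16.5 and 17.6 FPKM to 10.6, 9.68, 8.33, 8.62 and 7.96 FPKM (-0.70 ± 0.07 SE, adjusted p = 6.52e-06), with -0.77 within batch 2 against -0.57 within batch 3. Nr1d2, a clock repressor, changed by -0.79 ± 0.14 (SE). Thyroid and glucocorticoid response genes were higher for 4 and lower for 5 of 12. The 2 thyroid hormone receptors moved in opposite directions. Thra rose from 9.65, 11.3 and 13.8 FPKM to 22.6, 17.2, 17.9, 26.4 and 27.5 FPKM (0.86 ± 0.08 SE, adjusted p = 4.22e-06). Thrb fell from 4.15, 4.55 and 5.21 FPKM to 1.29, 1.61, 1.45, 1.25 and 1.55 FPKM (-1.21 ± 0.07 SE, adjusted p = 1.03e-07). Dio1, a deiodinase that activates thyroid hormone, fell by 1.15 ± 0.09 (SE, adjusted p = 4.40e-07). Nr3c2, the mineralocorticoid receptor, fell from 7.66, 8.86 and 11.0 FPKM to 2.34, 2.15, 1.83, 1.85 and 2.59 FPKM (-1.69 ± 0.09 SE, adjusted p = 2.70e-08), and Dio1 and Nr3c2 each had the same sign in both batches.

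Small islets were also set against the large islets of the same age. Against the 7 large islet libraries of batches 2 and 3, in a limma fit of 18 libraries with batch as a term, 0 of 12621 genes (0%) were called, and 1088 had an unadjusted p below 0.05. Without small replicate 7, 89 genes were called, and without large replicate 14 there was 1. Large islets held Mki67 at 29.0 to 53.6 FPKM, H19 at 48.3 to 233 FPKM and Ucn3 at 97.2 to 166 FPKM, ranges that overlap those of the small islets. For Eln the large islets reached 1411 FPKM from 31.0 FPKM, and for Pdyn they stayed between 0.205 and 1.21 FPKM. In the 4 small islet libraries of batch 1, outside the comparison, Mki67 was at 36.2 to 52.0 FPKM, Ucn3 at 80.4 to 148 FPKM and H2-Aa at 0.906 to 2.10 FPKM. With no adult library in their batch, these 4 libraries lay wholly on the called side of all adults for 4831 of the 7494 called genes, overlapped them for 2448, among them Cacnb2, and lay wholly on the opposite side for 215, among them Meg3. The calls used the same adult libraries, so these counts are not an independent check. The same counts over all genes kept were not made.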

How the data were processed

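RNA-seq libraries of mouse islets were compared from 1 table. The authors deposited FPKM values for 26 libraries, with the log2 fold change and mean log2 abundance, the F score and the p-value of a comparison of their own, which was not used here. The submitters' processing notes name mm10, STAR 2.6a, HTSeq 0.11.1 and edgeR without giving their roles; the strand setting, gene lengths and gene filter are not given in the sources used here, so reads of overlapping antisense genes cannot be told apart. Because FPKM are relative within a library, a fall of the highest genes raises all others. Whole fragment counts were recovered for 100.0% of values (tolerance 0.03) and used for depth (17.3 M to 29.5 M fragments) and 1 alternative. Genes were fitted with limma 3.58.1 and statmod 1.5.0 in R 4.3.3 on log2(FPKM + 1), with batch as a term and trended, robust variances, and p-values were adjusted over 12621 genes by the Benjamini-Hochberg method; the fit was tested on simulated data. Shares were compared by exact permutation within batches. Of 13641 genes, 20 had names turned into dates and 1 name occurred more than once; dates were not named. Genes named were a fixed set, the 10 largest rises and falls without overlap, up to 3 per direction and list, and the 6 strongest batch differences. The comparison, the 53 gene lists and the naming rule were chosen with earlier results of these data known. Alternatives covered pseudocount, filter, scaling, batch, model, pairing and each library left out; of these, each batch fitted alone with the same sign, the omission of adult replicates 1 and 2 and the pairing of small with large libraries were chosen after seeing the data. Some genes picked by the naming rule are not reported here.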

Additional observations from a re-analysis of the deposited data

Results flagged for a closer look

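Among 76 groups of libraries examined for a single library that stood apart, 3 did, and chance alone gives about 1 in 20. Ppy was at 7214 FPKM in small replicate 6, H19 at 177 FPKM in small replicate 5 and Igf2 at 118 FPKM in the same library, each far above the other 4 small islet libraries. Small replicate 5 was thus high for both genes of the imprinted H19 and Igf2 locus.

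Among the genes fixed for naming, those with the 10 largest rises and falls and those with the 6 lowest p for a batch difference, 22 are given here for which the change between small neonatal and adult islets differed between batches, by the limma interaction with adjustment over all genes; values are the log2 change in batch 3 minus that in batch 2. Genes with lower levels in the adults of batch 3 than in those of batch 2 gave Fhl2 4.46, Mt2 4.41, Krt8 3.73, Cdkn1a 3.23, Chac1 3.08, Trib3 3.04, Cldn4 2.73, Vps37b 2.45, Dnaja4 2.08 and Tuft1 1.95. Other genes named in the text also had a called batch difference, with Fos at 4.28, Ier2 at 4.16, Egr1 at 3.99 and Hsph1 at 3.28. The rise was larger in batch 3 for the histone genes Hist1h2ab (1.57), Hist1h2af (1.51), Hist1h3c (1.49) and Hist1h3b (1.09), for Dlk1 (1.52) and Ghrl (1.29), and for Trp53 (0.86) and Brca1 (0.36). The value was negative for Atm (-1.39), Cntnap2 (-0.70), Ucn3 (-0.64) and Iapp (-0.59). For Ucn3, Iapp and Cntnap2 this was a larger fall in batch 3, and for Atm a change of direction.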

How the results depend on the processing

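The count of 7494 called genes stayed within 1.5 times under every alternative fit of small neonatal against adult islets but 1: each batch fitted alone, with the same sign in both, gave 4523 genes, 3293 higher and 1230 lower. Lower genes rose from 2370 to 3930 with the median of ratios and to 4079 with quantile normalization. With 1 library left out in turn, called genes numbered 7025 to 7382 (4847 to 5101 higher, 2153 to 2299 lower), batch differences 4191 to 5281, and small against large islets 0 to 89. The insulin share differed by -4.64 points in batch 2, -7.77 in batch 3 and -6.96 to -5.09 with 1 library left out. The share of the 100 highest genes differed by -6.89 in batch 3, where 2 against 2 libraries cannot pass the threshold, and by -7.67 to -6.30 with 1 library left out; the glucagon share by -2.94 to -0.65. Among changes called in one of the fits compared, signs turned with quantile normalization for Ppy (-0.47) and Acat2 (-0.00214), and in batch 2 alone for Atm (0.36) and Vps37b (-0.89). In batch 3 alone, and with the same value in the fit with the replicate block, they turned for Cdkn1a (1.88), Ndufa4 (-0.22), Herpud1 (0.49), Hmox1 (0.47), Txnrd1 (0.13), Plk3 (0.22), Cx3cr1 (-0.29), Cd14 (0.15), Krt8 (1.76), Fhl2 (2.20), Tuft1 (0.29) and Cldn4 (0.92). Uncalled changes near 0 turned sign under more settings, as those of Ins1, Mafa, Sst and Ppy did with the median of ratios. The cause was not tested. Only numbers 5 and 6 occur in both groups. Same-numbered libraries deviated together with a correlation of 0.0337 over 2 pairs, so the numbers give no pairing. The replicate block called 7118 genes (4458 higher, 2660 lower). Its difference rests only on replicates 5 and 6 of each group, all of batch 3, so it adds no check beyond batch 3 alone. Small and large libraries of a batch share 4 numbers in their library names; their deviations correlated by 0.266, -0.136, 0.632 and 0.223, so not every pair went together, and with this replicate block 27 genes were called, a choice made after seeing the data. Depth limits genes near 1 FPKM most.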
